A study of Homo sapiens with 15 samples.

Results

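ABCC1 encodes MRP1, a drug efflux pump, and lies on the short arm of chromosome 16 (16p13) beside MARF1, NDE1, CEP20, MYH11, BMERB1 and NOMO3. These 7 genes, of 19775 measured, were followed across a breast cancer cell line and its doxorubicin-resistant derivative. They were read by 21 of the 54675 probe sets on the array, taking only probe sets whose annotation gave a single gene symbol. The genes were chosen from results of these data over the 5 groups, foremost the difference between untreated cells of the lines. That comparison is given below as a description with no test. The question was which neighbours of ABCC1 were higher together with it in the resistant line.

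CAL51 is a breast cancer line, and CALDOX was derived from it by prolonged culture in 0.4 µM doxorubicin, an anthracycline that poisons topoisomerase II. The 5 groups were CALDOX exposed for 24 h to 4 µM doxorubicin, having first gone through 3 drug-free passages, untreated CALDOX, untreated CAL51, and CAL51 given 0.4 µM doxorubicin for 24 h or for 48 h. Each group had 3 arrays, labelled as numbered biological samples. The labels do not say whether these came from independent cultures. CALDOX is a single derived line, and the labels do not say whether its untreated cultures were free of drug. The treated groups received different doses, so line and dose cannot be told apart between them.

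MRP1 is an ATP-driven transporter in the plasma membrane. It exports anthracyclines and other drugs together with glutathione, as well as glutathione conjugates and leukotriene C4. NDE1 binds LIS1 and dynein, the minus-end motor of microtubules, and works at centrosomes and in mitosis. CEP20, also called FOPNL, is a small centrosomal and ciliary protein. MARF1 is an RNA-binding protein with a role in meiosis described in mouse oocytes. MYH11 is the myosin heavy chain of smooth muscle, BMERB1 carries a bMERB domain, and NOMO3 encodes a subunit of a protein complex of the endoplasmic reticulum membrane.

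Values are log2 intensities as deposited. A difference of 1 on this scale is a 2-fold difference, and a ± b is a log2 difference with its standard error from limma over all 15 arrays. An adjusted p is the two-sided limma p after Benjamini-Hochberg adjustment over all 19775 genes, and a gene was called at an adjusted p under 0.05. Each gene was read by its brightest probe set. Probe sets differ in affinity, so levels are compared between samples and not between genes. The table carries no detection calls, so no gene can be called absent.

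Arrays of one group correlated at 0.9929 to 0.9978 (Pearson) over all probe sets, and arrays of different groups at 0.9789 to 0.9958. As markers of the cell line, the epithelial keratin gene KRT18 averaged 14.0 over the 15 arrays while VIM, the mesenchymal vimentin, averaged 10.86 in untreated CALDOX and 12.58 in untreated CAL51. The estrogen receptor gene ESR1 averaged 8.35, the progesterone receptor gene PGR 6.15 and ERBB2, which encodes HER2, 9.96. The means of 2 blood markers lay between 7.27 and 7.65 on every array, and those of 2 endothelial markers between 6.47 and 6.81. Over the 15 arrays the blood markers PTPRC and CD3E averaged 7.04 and 7.94, and the endothelial markers PECAM1 and CDH5 8.23 and 5.02. Of 5 breast epithelial markers, 2 were higher and 3 lower in untreated CALDOX than in untreated CAL51. The higher ones were KRT19, a keratin gene, by 4.76 and EPCAM by 0.44. KRT8, KRT18 and CDH1 gave -0.47, -0.48 and -1.35. Array means of the 5 were 11.02 to 11.10 in CALDOX and 10.46 to 10.52 in CAL51, and KRT19 had the largest part in that. Of 4 mesenchymal markers, 1 was higher (FN1, fibronectin, by 2.06) and 2 lower, with array means of 11.06 to 11.21 in CALDOX and 11.08 to 11.17 in CAL51. The part of these markers in the members' differences was not tested. Between untreated CALDOX and untreated CAL51, limma called 5125 genes (25.9%), so a call in that comparison is common.

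In the order of starts along the chromosome the members run BMERB1, MARF1, NDE1, MYH11, CEP20, ABCC1 and NOMO3. MYH11 overlaps NDE1, and ABCC6, a paralog of ABCC1 that lies between ABCC1 and NOMO3, was not analysed here. MARF1 and NDE1 stand head to head, and their start regions are printed because these neighbours were higher together in CALDOX, as was CEP20. The RefSeq promoter table (GRCh38.p14) held 4 promoters for 3 of the 7 members, each from 250 bases before to 50 after the start. Sequences run 5′ to 3′ on the gene's strand, and capitals mark matches on either strand to the GC box GGGCGG, to the motif CCAAT or to the antioxidant element core TGACNNNGC. None of these matches overlapped another. MARF1 (minus strand) is chr16:15643105-15643404, NDE1 (plus strand) has one start region at chr16:15643132-15643431 and one at chr16:15649995-15650294, and CEP20 (minus strand) is chr16:15888554-15888853.
MARF1: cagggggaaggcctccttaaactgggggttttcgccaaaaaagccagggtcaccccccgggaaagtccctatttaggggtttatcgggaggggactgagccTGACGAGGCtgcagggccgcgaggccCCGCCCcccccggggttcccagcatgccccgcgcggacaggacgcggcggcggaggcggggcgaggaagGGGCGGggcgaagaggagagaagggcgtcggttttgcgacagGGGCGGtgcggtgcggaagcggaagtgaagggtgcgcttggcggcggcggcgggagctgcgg
NDE1, start nearer MARF1: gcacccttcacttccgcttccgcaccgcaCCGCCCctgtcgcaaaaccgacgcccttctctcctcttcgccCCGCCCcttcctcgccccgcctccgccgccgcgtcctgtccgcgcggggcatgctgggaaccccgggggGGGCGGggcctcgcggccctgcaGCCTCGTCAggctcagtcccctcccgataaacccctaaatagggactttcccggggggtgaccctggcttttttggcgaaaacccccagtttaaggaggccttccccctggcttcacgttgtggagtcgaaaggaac
NDE1, second start: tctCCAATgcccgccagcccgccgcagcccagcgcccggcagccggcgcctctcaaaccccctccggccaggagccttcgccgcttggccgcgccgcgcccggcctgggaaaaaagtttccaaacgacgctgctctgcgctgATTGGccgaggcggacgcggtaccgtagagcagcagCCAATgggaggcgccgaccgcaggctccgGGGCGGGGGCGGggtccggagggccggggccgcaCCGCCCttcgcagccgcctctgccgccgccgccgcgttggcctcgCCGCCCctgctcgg
CEP20: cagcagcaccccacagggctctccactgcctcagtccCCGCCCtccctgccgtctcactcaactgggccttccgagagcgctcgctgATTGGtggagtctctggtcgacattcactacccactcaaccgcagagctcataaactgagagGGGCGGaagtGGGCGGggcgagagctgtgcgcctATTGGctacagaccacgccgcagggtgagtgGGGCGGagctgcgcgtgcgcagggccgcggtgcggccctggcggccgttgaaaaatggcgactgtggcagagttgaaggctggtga
The MARF1 window and the nearer NDE1 window share 273 bases, read on opposite strands. They therefore hold the same 3 GC boxes and the same antioxidant core.

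The second NDE1 window held 4 GC boxes and 3 CCAAT boxes, and the CEP20 window 4 GC boxes and 2 CCAAT boxes. No window held TATAAA or CACGTG. The windows were rich in G and C, at 70.7% for MARF1, 67.7% and 76.3% for NDE1 and 65.3% for CEP20, against a median of 58.7% over 35116 promoters in the table. Of all these promoters, 45.0% held a GC box, 34.6% a CCAAT box, 13.3% the antioxidant core, 11.5% TATAAA and 7.26% CACGTG. These matches are descriptions of the letters and not evidence of binding.

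In untreated cells, ABCC1, CEP20, NDE1 and MARF1 were higher in CALDOX than in CAL51, while MYH11 and BMERB1 had nearly equal means in both lines. ABCC1 read 11.686, 11.766 and 11.663 in untreated CALDOX, against 9.975, 9.947 and 9.937 in untreated CAL51. The lowest CALDOX array stood 1.69 above the highest CAL51 array. The difference was 1.75 ± 0.06, which is 3.37-fold, and it ranked 84 from the top of 19775 genes. In bulk cultures, more cells that express a gene and more RNA per cell cannot be told apart.

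CEP20, the measured gene just before ABCC1, read 11.860, 12.021 and 11.955 in untreated CALDOX, against 10.817, 10.650 and 10.629 in untreated CAL51. The arrays did not overlap, with 1.04 between the nearest pair. The difference was 1.25 ± 0.10 (2.37-fold).

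NDE1 read 9.849, 9.900 and 9.834 in untreated CALDOX, against 8.788, 8.901 and 8.783 in untreated CAL51. All CALDOX arrays were above all CAL51 arrays, and the difference was 1.04 ± 0.06 (2.05-fold). MARF1, on the other side of the shared start region, read 8.742, 8.946 and 8.846 in untreated CALDOX, against 8.054, 8.149 and 8.010 in untreated CAL51. Here too the groups did not overlap, and the difference was 0.77 ± 0.08 (1.71-fold).

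MYH11 lies between NDE1 and CEP20. It read 7.827, 7.841 and 7.827 in untreated CALDOX, against 7.827, 7.855 and 7.802 in untreated CAL51, a difference of 0.00 ± 0.06. BMERB1, on the far side of MARF1, read 7.860, 7.722 and 7.795 in untreated CALDOX, against 7.719, 7.830 and 7.763 in untreated CAL51, a difference of 0.02 ± 0.08. Arrays of the lines overlapped for both genes. NOMO3 read 7.934, 8.008 and 7.961 in untreated CALDOX, against 7.659, 7.701 and 7.967 in untreated CAL51, where the third culture was as high as CALDOX. Its difference was 0.19 ± 0.08. Probe sets that match NOMO1, NOMO2 and NOMO3 alike were higher in untreated CALDOX by 0.67 and 0.64, and which copies they read was not tested.

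The CALDOX and CAL51 arrays did not overlap, with CALDOX higher, for 4 of the 7 members, where the same held for 19.4% of all genes. The median difference over the 7 members was 0.77, beside 0.00 over all genes. Just inside the set that did not overlap stood MARF1, with 0.59 between the nearest arrays, and just outside it MYH11 and NOMO3, whose nearest arrays crossed by 0.03. MYH11, BMERB1 and NOMO3 also read dimmer than the other members, with 51%, 50.4% and 53.9% of genes dimmer. That share was 62.1% for MARF1, 74.1% for NDE1, 92.9% for ABCC1 and 94.6% for CEP20. Probe sets differ in affinity, so these levels do not say how strongly one gene is expressed beside another. Among dimmer probe sets of the higher members, 1 of MARF1 (mean level 6.59) gave 0.43 and 1 of NDE1 (7.61) gave 0.66 between untreated lines. The dimmest NDE1 probe set (6.31) gave 0.04. Arrays understate differences of dim probe sets, and how near MYH11, BMERB1 and NOMO3 lie to background was not tested.

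**Figure D1:**
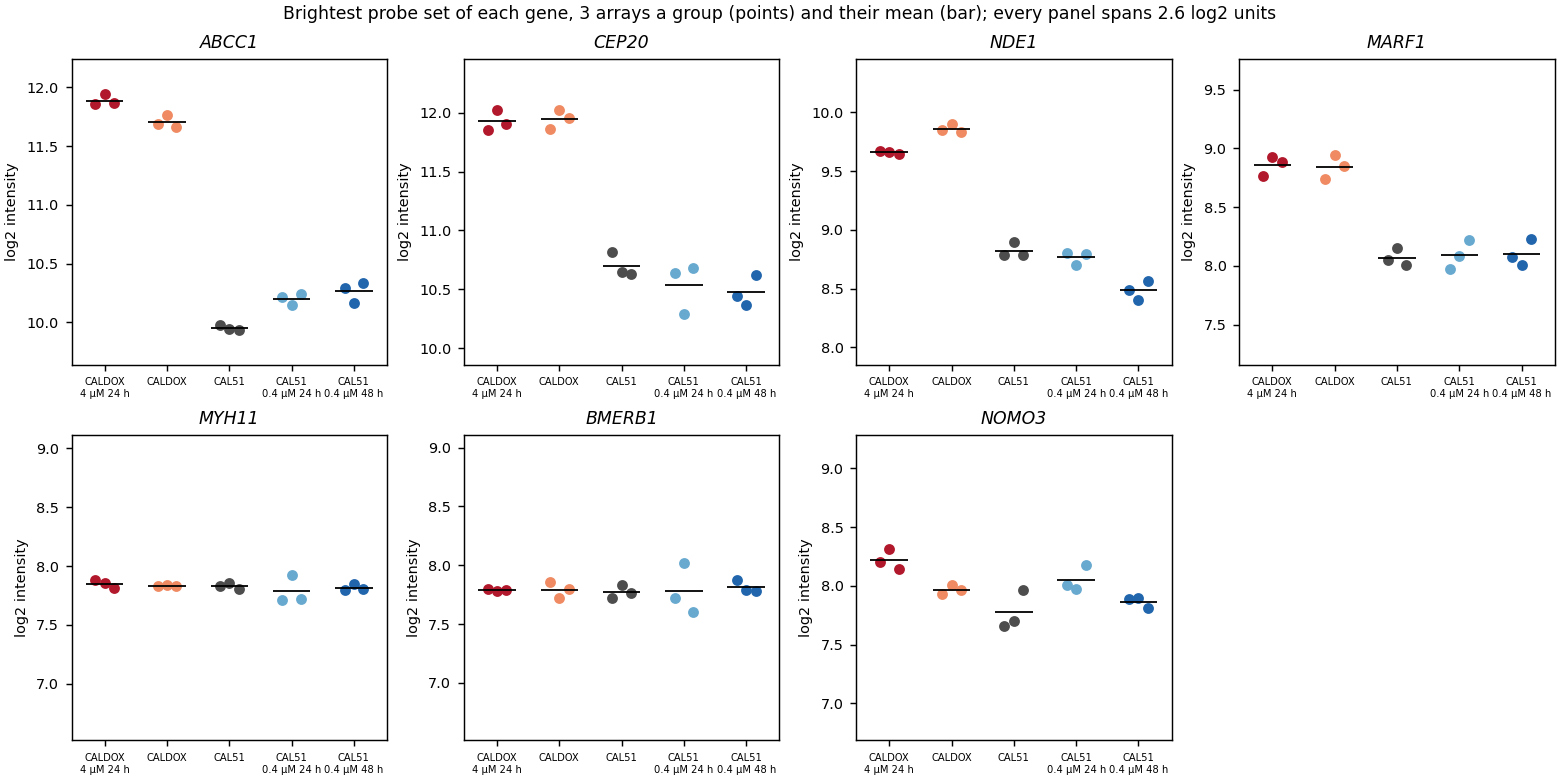
Log2 intensity (y axis) of each member on each of the 15 arrays, by group (x axis), with points for arrays and bars for group means. ABCC1, CEP20, NDE1 and MARF1 lie higher on all 6 CALDOX arrays than on all 9 CAL51 arrays, while the lines overlap for MYH11, BMERB1 and NOMO3.

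Between doxorubicin-treated cells of the lines ABCC1, CEP20, NDE1 and MARF1 were higher in CALDOX. These are other cultures than the untreated ones, but their results were also known when the genes were chosen, so the p-values are not independent evidence. ABCC1 read 11.854, 11.942 and 11.864 in CALDOX after 24 h at 4 µM, against 10.220, 10.144 and 10.241 in CAL51 after 24 h at 0.4 µM. No arrays overlapped, and ABCC1 was higher in treated CALDOX by 1.69 ± 0.06 (3.22-fold, adjusted p = 3.54e-12). CEP20 read 11.851, 12.024 and 11.910 in treated CALDOX, against 10.641, 10.292 and 10.685 in treated CAL51. The CALDOX arrays were again the higher ones, by 1.39 ± 0.10 (2.62-fold, adjusted p = 2.06e-08).

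NDE1 read 9.675, 9.662 and 9.642 in treated CALDOX, against 8.807, 8.699 and 8.792 in treated CAL51. It was higher by 0.89 ± 0.06 (1.86-fold, adjusted p = 7.8e-09), with no overlap. MARF1 read 8.767, 8.922 and 8.881 in treated CALDOX, against 7.972, 8.080 and 8.224 in treated CAL51. It was higher by 0.76 ± 0.08 (1.70-fold, adjusted p = 1.84e-06), also with no overlap.

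The other 3 members did not pass the test between treated lines. MYH11 read 7.884, 7.858 and 7.810 in treated CALDOX, against 7.707, 7.928 and 7.721 in treated CAL51, a difference of 0.07 with a 95% interval of -0.064 to 0.195 (adjusted p = 0.508). BMERB1 read 7.801, 7.781 and 7.790 in treated CALDOX, against 7.719, 8.021 and 7.600 in treated CAL51. Its difference was 0.01, with an interval of -0.169 to 0.190 (adjusted p = 0.953). NOMO3 read 8.200, 8.312 and 8.142 in treated CALDOX, against 8.008, 7.975 and 8.174 in treated CAL51, a difference of 0.17 with an interval of -0.005 to 0.337 (adjusted p = 0.156). All 3 intervals lie below the differences of ABCC1, CEP20, NDE1 and MARF1. Arrays of the lines overlapped for each of the 3. For NOMO3 this holds for its own probe set. Probe sets that match NOMO1, NOMO2 and NOMO3 alike were higher in treated CALDOX by 0.87 and 0.97. Their adjusted p-values were 1.04e-08 and 1.07e-08, from limma over all probe sets, and which copies they read was not tested.

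In this comparison 4 of 7 members were called higher and 0 lower, where 14.1% of all genes were called higher. At an unadjusted p under 0.05 limma gave the same count of 4, all higher. The median over the 7 members was 0.76, beside 0.03 over all genes. The count of 4 held when any single array was left out.

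Smooth muscle genes, measured because MYH11 is one of their group, were lower in CALDOX where called, save 1 between treated lines. Of 7 other smooth muscle genes 0 were called higher and 3 lower in untreated CALDOX, and 1 higher and 3 lower in treated CALDOX. Of all genes, 25.9% were called between untreated lines and 27.2% between treated lines. The higher one was DES, desmin, at 0.67 ± 0.16 between treated lines (adjusted p = 0.00389) and 0.41 ± 0.16 between untreated lines (adjusted p = 0.0669). TAGLN, an actin-binding protein, was lower by 1.97 on the log2 scale in untreated CALDOX, with ACTG2, an actin, at -1.52 ± 0.08 and CNN1, calponin, at -1.11 ± 0.14. Their adjusted p-values were 3.12e-13, 9.7e-10 and 1.24e-05. The mean of the list ranged from 7.77 to 7.81 in untreated CALDOX and from 8.39 to 8.46 in untreated CAL51.

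Other probe sets of each member were read to see whether they gave the same picture. Of the 21 probe sets, 12 were higher in untreated CALDOX without overlap between the lines, as were 16.7% of all single-symbol probe sets, and 9 overlapped. Between the treated lines, 11 of 21 were called higher and 0 lower in a fit over all single-symbol probe sets, where 24.7% of probe sets were called in either direction. Both ABCC1 probe sets were higher, by 1.75 and 1.53 in untreated CALDOX and by 1.69 and 1.69 in treated CALDOX. Both CEP20 probe sets were higher, by 1.25 and 1.24 in untreated and by 1.39 and 1.29 in treated CALDOX.

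NDE1 was read by 5 probe sets, and the size of its difference varied among them. The brightest, used above, gave 1.04 in untreated CALDOX, 3 others gave 0.65 to 0.69, and the dimmest (mean level 6.31) gave 0.04. Averaging the 5 lowered NDE1 to 0.55 between treated lines (adjusted p = 1.43e-07) and to 0.62 between untreated lines. In treated CALDOX the 3 middle probe sets gave 0.59 to 0.62 and were called, while the dimmest gave 0.05 (adjusted p = 0.727). The second MARF1 probe set gave 0.43 in untreated CALDOX and 0.53 in treated CALDOX (adjusted p = 0.00243).

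The 7 MYH11 probe sets ranged from -0.03 to 0.15 in untreated CALDOX, and 2 of them did not overlap between the lines. In treated CALDOX they ranged from -0.02 to 0.32, and 1 of the 7 (mean level 7.10) was called, at 0.32 ± 0.09 (adjusted p = 0.0182). Neither of the 2 BMERB1 probe sets was called in treated CALDOX, at 0.01 and 0.05. NOMO3 had 1 probe set of its own, and probe sets that match several NOMO copies were not counted as members. Which transcripts of the overlapping NDE1 and MYH11 genes each probe set reads was not tested.

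**Figure D2:**
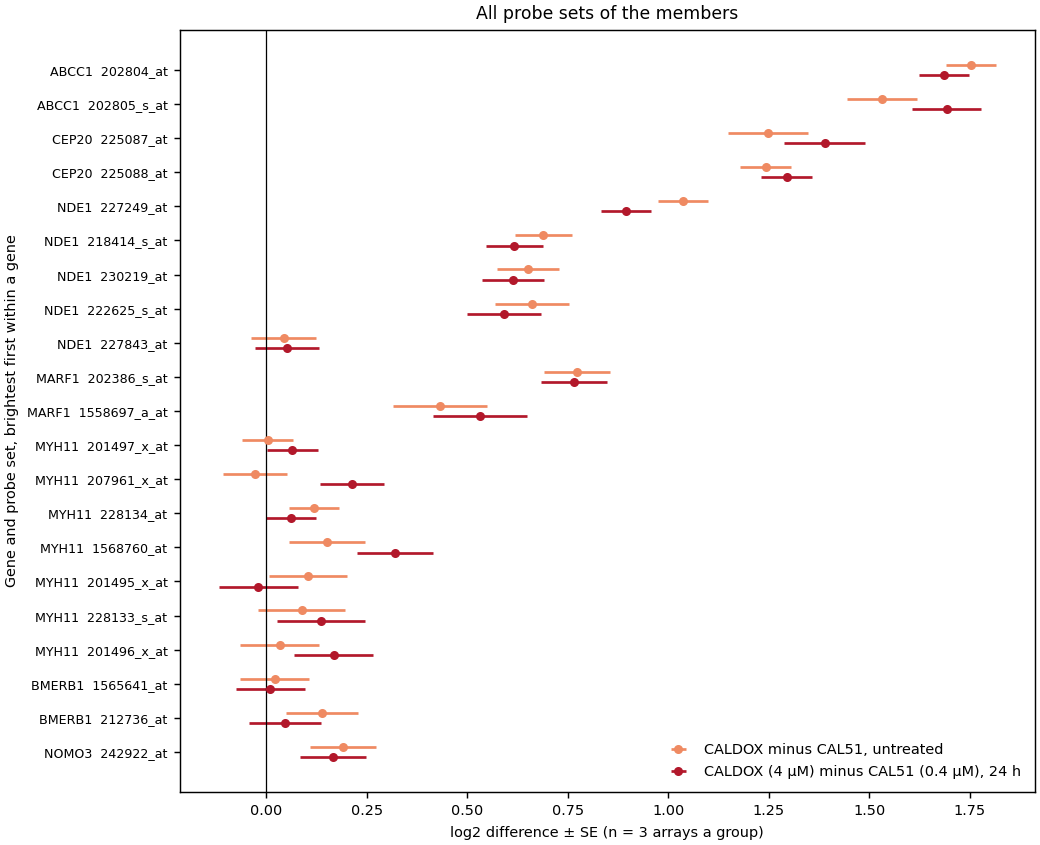
Log2 difference with its standard error (x axis) for each of the 21 member probe sets (rows), for untreated CALDOX minus untreated CAL51 and treated CALDOX minus treated CAL51. The ABCC1 and CEP20 probe sets lie above 1, MARF1 and NDE1 at 0.43 to 1.04 in untreated cells save 1 dim NDE1 probe set at 0.04, and MYH11 and BMERB1 near 0.

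After doxorubicin the members differed from untreated cells of the same line by at most 0.34 on the log2 scale, in both directions. In CAL51, ABCC1 read 9.95 ± 0.02 untreated, 10.20 ± 0.05 at 24 h and 10.27 ± 0.09 at 48 h (mean ± SD, n = 3 each). At 24 h it was higher than in untreated CAL51 by 0.25 ± 0.06 (1.19-fold, adjusted p = 0.0128), and at 48 h by 0.31 ± 0.06 (1.24-fold, adjusted p = 0.00102). No treated array overlapped an untreated one. The second ABCC1 probe set gave 0.12 at 24 h (adjusted p = 0.497) and 0.00 at 48 h (adjusted p = 0.999), so these calls rest on the brightest probe set. Averaged over both probe sets, the ABCC1 calls were lost, with adjusted p = 0.0767 at 24 h and 0.0894 at 48 h, and in a fit to the compared arrays alone the 24 h call was lost too (0.0805). Without replicate 1 or replicate 3 of CAL51 at 24 h, the adjusted p for ABCC1 at 24 h was 0.0511 or 0.0502.

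NDE1 went the other way at 48 h. It read 8.490, 8.406 and 8.563 in CAL51 at 48 h, against 8.788, 8.901 and 8.783 in untreated CAL51. The treated arrays were all lower, and NDE1 fell by 0.34 on the log2 scale (SE 0.06, adjusted p = 0.00052). At 24 h it differed by -0.06 (adjusted p = 0.633). Its other 4 probe sets gave -0.22 to 0.00 at 48 h, none of them called, and the mean of its 5 probe sets gave -0.16 (adjusted p = 0.0167).

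NOMO3 was higher in CAL51 at 24 h by 0.28 ± 0.08 (adjusted p = 0.0391), with arrays of 8.008, 7.975 and 8.174 at 24 h against 7.659, 7.701 and 7.967 untreated. The lowest treated array lay just above the highest untreated one. The NOMO3 call was lost without any one of 6 arrays, with adjusted p from 0.0539 to 0.157: replicates 1 and 2 of untreated CAL51, 1 and 3 of CAL51 at 24 h, 3 of untreated CALDOX and 1 of treated CALDOX. Probe sets that match NOMO1, NOMO2 and NOMO3 alike gave -0.05 and -0.09 at 24 h. Their adjusted p-values were 0.759 and 0.521, from limma over all probe sets. At 48 h the NOMO3 difference was 0.09 (adjusted p = 0.518). CEP20 differed by -0.16 at 24 h and -0.22 at 48 h (adjusted p = 0.383 and 0.141), and passed at 48 h only as the mean of its probe sets (-0.19, adjusted p = 0.0372). MARF1 differed by 0.02 and 0.03 (adjusted p = 0.92 and 0.83). MYH11 differed by -0.04 and -0.01, and BMERB1 by 0.01 and 0.04, with no calls.

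At 24 h 2 of 7 members were called in CAL51, where 10.1% of all genes were called. At 48 h 2 of 7 were called, 1 higher and 1 lower, where the share of all genes was 21.6%. The 24 h and 48 h comparisons share the untreated CAL51 arrays.

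Between CALDOX after 24 h at 4 µM and untreated CALDOX, 1 member passed the threshold. The labels give the 3 drug-free passages for the treated cultures alone, so drug history and the 24 h exposure cannot be told apart here. NDE1 read 9.675, 9.662 and 9.642 in treated CALDOX, against 9.849, 9.900 and 9.834 in untreated CALDOX. No arrays overlapped, and NDE1 fell by 0.20 on the log2 scale (SE 0.06, adjusted p = 0.0391). The NDE1 call was lost without any one of the 6 CALDOX arrays, with adjusted p from 0.0801 to 0.134, and without replicate 1 of CAL51 at 24 h (0.0509). With the mean of each gene's probe sets NDE1 was not called (-0.14, adjusted p = 0.0675) and ABCC1 was (0.23, adjusted p = 0.0256). ABCC1 was 0.18 ± 0.06 above untreated CALDOX (adjusted p = 0.0653, and 0.00237 to 0.0392 under 5 other settings) and NOMO3 0.25 ± 0.08 (adjusted p = 0.0619, and 0.00723 to 0.0423 under 3 others). NOMO3 also passed without replicate 3 of untreated CAL51 (0.0255) or of CAL51 at 24 h (0.0499). In the fit to all arrays neither gene passed, though treated arrays lay above untreated ones for both, as they did for 13.7% of all genes. Probe sets shared by NOMO1, NOMO2 and NOMO3 gave 0.16 and 0.24 in treated minus untreated CALDOX. Their adjusted p-values were 0.177 and 0.0457, from limma over all probe sets. CEP20 differed by -0.02 and MARF1 by 0.01. Of all genes, 10.3% were called in this comparison, which shares the untreated CALDOX arrays with that between untreated lines.

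The 24 h response in CALDOX minus that in CAL51 was tested directly. With limma 0 of 7 members were called, 0 also at an unadjusted p under 0.05, where 1.43% of all genes were called. The ABCC1 difference was -0.07, with a 95% interval of -0.244 to 0.111 (adjusted p = 0.85), NDE1 gave -0.14 with an interval of -0.320 to 0.034 (adjusted p = 0.569), and CEP20 0.14 with an interval of -0.156 to 0.439 (adjusted p = 0.794). With 3 arrays in each group, differences of responses within these intervals were not excluded.

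**Figure D3:**
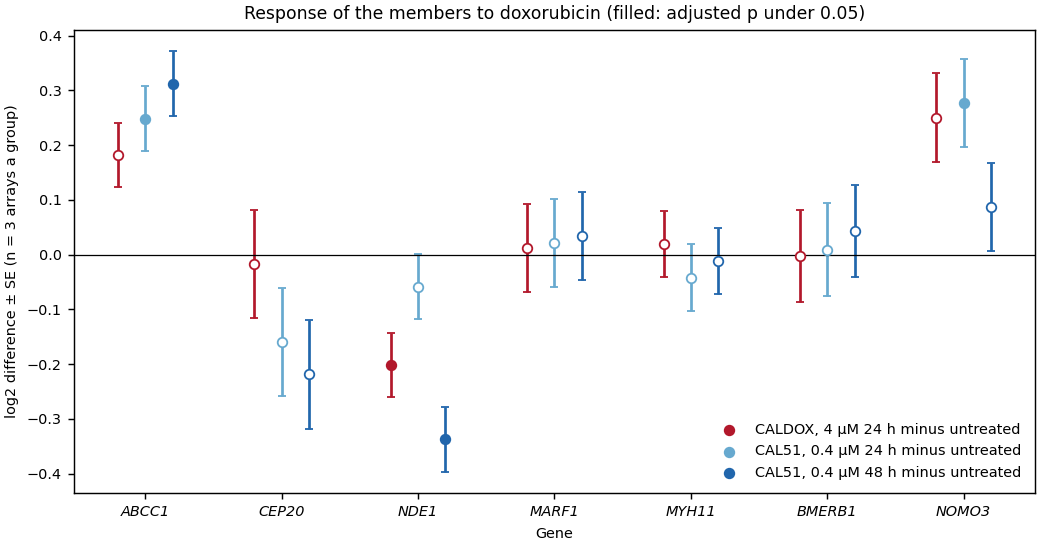
Log2 difference with its standard error (y axis) of each member (x axis) for CALDOX 24 h minus untreated CALDOX, CAL51 24 h minus untreated CAL51 and CAL51 48 h minus untreated CAL51. Filled points passed the test, and all values lie between -0.34 (NDE1, CAL51 48 h) and 0.31 (ABCC1, CAL51 48 h).

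The neighbourhood was then read through the 20 measured genes on each side of ABCC1, which left 34 genes once the members were set aside. Between untreated CALDOX and untreated CAL51, 14 of 34 were called, 12 higher and 2 lower. That is 41.2%, where 25.9% of all genes were called. Their median difference was 0.08, beside 0.00 over all genes. Leaving out single arrays gave 12 to 15 calls.

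On the side of CEP20 and MARF1, 8 of 15 genes were higher in untreated CALDOX and 0 lower, where 14.2% of all genes were higher. CPPED1, a phosphatase, was higher by 0.67 ± 0.06 (adjusted p = 6.47e-07), PDXDC1 by 0.56 ± 0.07 (adjusted p = 1.45e-05) and SNX29, a sorting nexin, by 0.52 ± 0.07 (adjusted p = 1.7e-05). SHISA9, a partner of glutamate receptors, was higher by 0.50 and MRTFB, a coactivator of serum response factor, by 0.49. RRN3, an initiation factor of RNA polymerase I, was higher by 0.41, NTAN1, an amidase of the N-degron pathway, by 0.29 and NPIPA1 by 0.22. The adjusted p-values of these 5 genes ran from 3.36e-05 to 0.0296. NPIPA1 belongs to a family of near-identical copies, so its value is uncertain.

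The measured genes nearest the members in the gene order did not pass the test between untreated lines. MPV17L, the measured gene next to BMERB1, gave 0.13 ± 0.10 and LOC100505915, the next measured gene beyond it, -0.16 ± 0.07. Unmeasured genes lie between MPV17L and LOC100505915 and between PKD1P1 and XYLT1. On the other side of ABCC1, past NOMO3, PKD1P1 gave -0.06 ± 0.08 and XYLT1, a xylosyltransferase, 0.00 ± 0.12. Between treated lines PKD1P1 was called, at -0.29 ± 0.08 (adjusted p = 0.0124), and the other 3 were not. PKD1P1 was higher in CAL51 at 24 h by 0.27 ± 0.08 (adjusted p = 0.0398). LOC100505915 was higher after doxorubicin by 0.33 to 0.34 in CAL51 at 24 h, in CAL51 at 48 h and in CALDOX at 24 h (adjusted p from 0.00123 to 0.00324).

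On the NOMO3 side, 4 of 19 genes were higher in untreated CALDOX and 2 lower, where 14.2% of all genes were higher. GPRC5B, an orphan G protein-coupled receptor 17 measured genes from ABCC1, was higher by 1.84 ± 0.06 (3.58-fold, adjusted p = 7.84e-13), and its neighbour IQCK by 0.97 ± 0.08 (adjusted p = 1.45e-07). TMC7 was higher by 0.34 and LOC102723692 by 0.30. SYT17, a synaptotagmin, was lower by 0.68 on the log2 scale (adjusted p = 2.25e-05) and VPS35L, a subunit of the retriever sorting complex, gave -0.65 ± 0.07 (adjusted p = 9.91e-07). SYT17 and VPS35L lie between ABCC1 and GPRC5B in the gene order.

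Between treated CALDOX and treated CAL51, 15 of the 34 genes were called, 11 higher and 4 lower, where the share of all genes was 27.2%. GPRC5B was higher by 1.65 ± 0.06 (adjusted p = 2.99e-12), IQCK by 0.96, PDXDC1 by 0.71 ± 0.07 and CPPED1 by 0.58 ± 0.06. VPS35L was lower by 0.93 on the log2 scale, SYT17 gave -0.80, and CCP110, a centriolar cap protein, -0.55 ± 0.10 (adjusted p = 0.000566). PKD1P1 was the other lower gene. SHISA9, higher between untreated lines, gave -0.02 between treated ones. SHISA9 was the 1 gene of the 34 whose 24 h response differed between the lines, by -0.52 ± 0.10 (adjusted p = 0.012).

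In CAL51 at 24 h 6 of the 34 genes were called, all higher, and at 48 h 9 were called, 6 higher and 3 lower. These are 17.6% and 26.5%, where 10.1% and 21.6% of all genes were called. GPRC5B was higher by 0.33 at 24 h and by 0.76 ± 0.06 at 48 h (adjusted p = 0.00123 and 1.05e-07), and SHISA9 by 0.73 and 0.68. In CALDOX at 24 h 5 were called (14.7%, where 10.3% of all genes were), 2 higher and 3 lower.

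**Figure D4:**
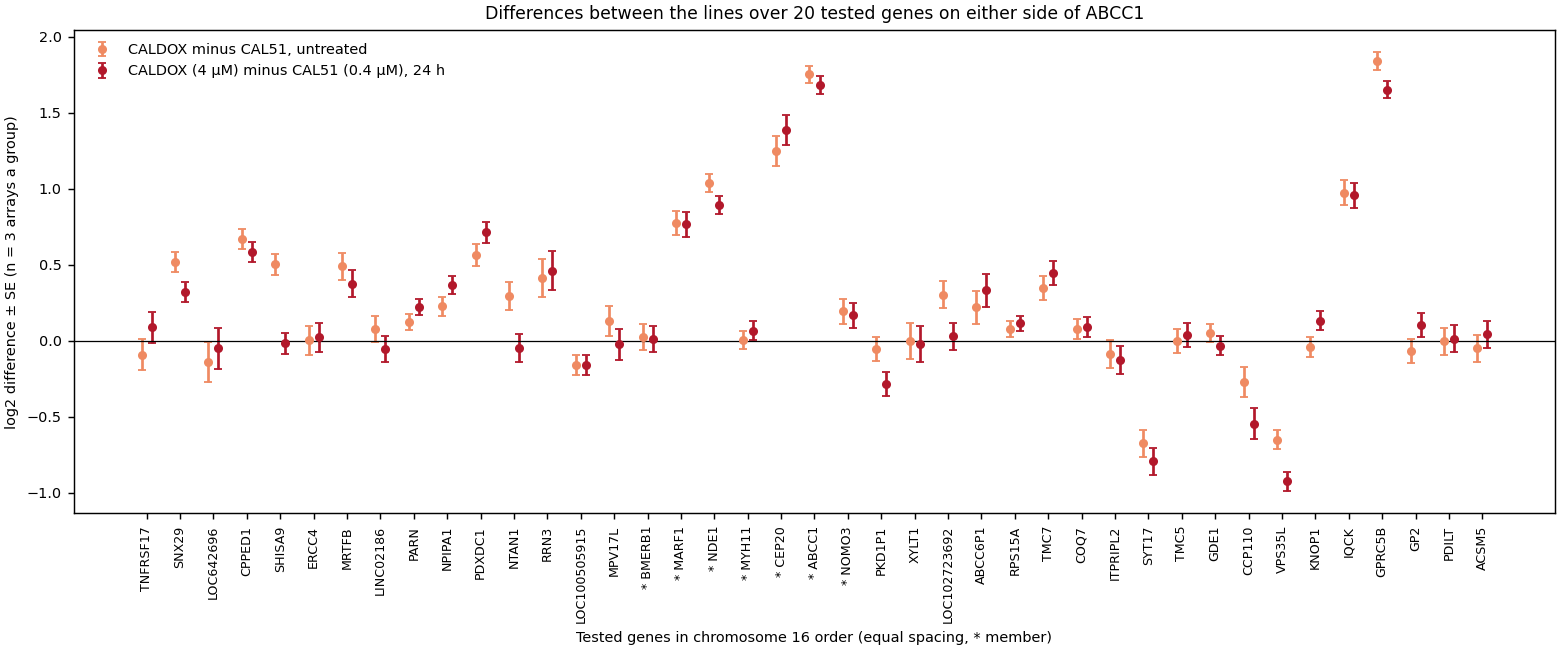
Log2 difference with its standard error (y axis) of the 20 measured genes on each side of ABCC1, in chromosome order (x axis, evenly spaced by rank), for untreated CALDOX minus untreated CAL51 and treated CALDOX minus treated CAL51. ABCC1, CEP20, NDE1 and MARF1 form a peak with MYH11 near 0 inside it, and GPRC5B stands at 1.84 with IQCK beside it at 0.97.

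Over a longer stretch the medians were small. The share of genes called higher was above the 14.2% of all genes in each set before ABCC1. After ABCC1 that share was exceeded in every set but the last 40 genes. Among the 10 genes nearest before ABCC1, 5 were not members, with a median of 0.29 in untreated CALDOX minus untreated CAL51, 3 higher and 0 lower. The next 10 genes before it had a median of 0.17 (5 higher, 0 lower), the 20 beyond them 0.07 (5 higher, 0 lower) and the 40 beyond those 0.16 (17 higher, 4 lower). After ABCC1 the medians were 0.08 over 9 genes, -0.02 over the next 10, 0.09 over the next 20 and -0.01 over the next 40, with 11 genes higher and 6 lower in all. Over the whole of chromosome 16, 180 of 818 genes were higher (22%), where 14.2% of all genes were higher. CRYM, a thyroid hormone-binding protein 34 genes past ABCC1, had the largest difference of the 161 genes plotted, 3.61 ± 0.07, and is named here after its value was seen.

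**Figure D5:**
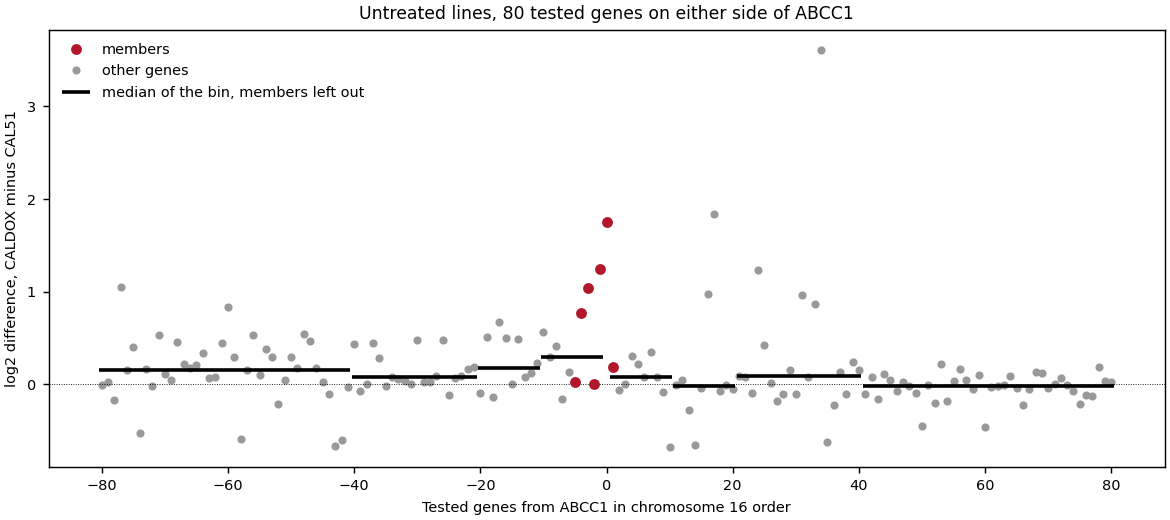
Log2 difference, untreated CALDOX minus untreated CAL51 (y axis), of the 80 measured genes on each side of ABCC1 against their rank from ABCC1 (x axis), with members and other genes marked. The higher members cluster at ranks -4 to 0, and single genes such as GPRC5B (1.84) and CRYM (3.61) stand out elsewhere.

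Genes whose values over the arrays lay closest to those of ABCC1 were sought over all genes. Closeness was measured as the root mean square difference of log2 values over 15 arrays, after centring each gene on its untreated CAL51 mean, among 19774 genes. The nearest were SLC1A3, a glutamate transporter (0.144), MEGF9 (0.148), IFITM1, an interferon-induced membrane protein (0.153), ATP1B1, a subunit of the sodium-potassium pump (0.154), FAM149A (0.157) and TINAG (0.168). None of these 6 lies on chromosome 16. The nearest gene of the neighbourhood was GPRC5B, at rank 21 with 0.218. CEP20 came at rank 179 with 0.496, NDE1 at rank 397 with 0.669 and MARF1 at rank 444 with 0.696. The measure reads mostly the size of the difference between the lines, so a gene that follows the same groups with a smaller difference ranks lower.

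The ABCC subfamily, the transporters related to MRP1, was not higher as a group. Of the 10 other members measured, 1 was higher and 1 lower in untreated CALDOX than in untreated CAL51, with a median of 0.08. That is 20% called, where 25.9% of all genes were. ABCC5, an exporter of cyclic nucleotides, was higher by 0.40 ± 0.09 (adjusted p = 0.00199) and ABCC4, another exporter of cyclic nucleotides, gave -0.51 ± 0.07 (adjusted p = 1.87e-05). Between treated lines ABCC5 was again higher, by 0.45 ± 0.09, with ABCC4 at -0.36 ± 0.07 and ABCC2 at -0.33 ± 0.11, so that 30% were called, near the 27.2% of all genes. In CAL51 limma called 0 of 10 at 24 h (1 at an unadjusted p under 0.05) and 3 at 48 h (30%, where 21.6% of all genes were called), all higher: ABCC5 by 0.34, ABCC3 by 0.31 and ABCC10 by 0.20. In CALDOX at 24 h it called 0 of 10, with 2 at an unadjusted p under 0.05.

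Genes that supply or conjugate glutathione, the co-substrate of MRP1, or make and process leukotriene C4 were higher in CALDOX in part. Of 21 measured, 11 were higher and 1 lower in untreated CALDOX than in untreated CAL51, with a median of 0.22. That is 57.1% called, where 25.9% of all genes were. GSTM3, a glutathione transferase, was higher by 1.12 ± 0.05 (adjusted p = 8.59e-11), MGST3, a microsomal one, by 0.96 ± 0.07 (adjusted p = 2.16e-08) and GSTM4 by 0.61 ± 0.06 (adjusted p = 4.76e-07). MGST1 was the lower one, at -0.87 ± 0.07 (adjusted p = 5.21e-08). Between treated lines 11 were higher and 2 lower (61.9%, where 27.2% of all genes were called), led by SLC7A11, the cystine importer, at 1.28 ± 0.07 (adjusted p = 9.67e-10).

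SLC7A11 was also the 1 gene of the 21 whose 24 h response differed between CALDOX at 4 µM and CAL51 at 0.4 µM. It was higher by 0.85 ± 0.07 in treated CALDOX than in untreated CALDOX and gave -0.36 ± 0.07 in CAL51 at 24 h. The difference of responses was 1.21 ± 0.10 (adjusted p = 1.61e-05). In CAL51 at 24 h 4 of the 21 genes were higher and 1 lower (23.8%, where 10.1% of all genes were called). At 48 h 6 were higher and 5 lower (52.4%, where 21.6% of all genes were called). At 48 h GSTM3 gave 0.54, MGST3 0.51, GSTP1, the pi-class transferase, 0.43 and SLC7A11 -0.61. In CALDOX at 24 h 2 were higher, SLC7A11 and GCLM, a subunit of glutamate-cysteine ligase (0.28, adjusted p = 0.0414), and 0 lower. That is 9.52% called, no more than the 10.3% of all genes.

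Partners of NDE1 and CEP20 at dynein and the centrosome moved in both directions. Of 14 measured, 3 were higher and 5 lower in untreated CALDOX than in untreated CAL51, with a median of -0.12. That is 57.1%, where 25.9% of all genes were called. CEP43, a centrosomal protein related to CEP20, was higher by 0.70 ± 0.09 (adjusted p = 8.5e-06), DYNLT1, a dynein light chain, by 0.60 ± 0.06 (adjusted p = 1.62e-06) and PIBF1 by 0.44 ± 0.08. The dynein heavy chain DYNC1H1 gave -0.41 ± 0.07 (adjusted p = 0.000462). Between treated lines 4 were higher and 7 lower (78.6%, where 27.2% of all genes were called), with PAFAH1B1, which encodes LIS1, at -0.47 ± 0.06 (adjusted p = 2.46e-05). In CAL51 at 48 h 1 was higher and 3 lower (28.6%, near the 21.6% of all genes), with the kinetochore protein CENPF, which binds NDE1, at -0.73 ± 0.06 (adjusted p = 1.6e-07).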

How the data were processed

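Per the submitters' processing notes, the authors made the deposited log2 values with RMA, which corrects background, quantile normalizes arrays and summarizes probes. The RMA version was not given in the sources used here. Values ran from 3.083 to 14.762 and were therefore read as log2, since the labels name no base. No further normalization was applied, and the scanner files were not used here. With 3 arrays in each of 5 groups, the number of arrays limits precision.

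Of 54675 probe sets, 41097 had 1 gene symbol in the platform annotation, 1801 several and 11777 none. The 62 controls were left out, and 41037 of the remaining 41091 single-symbol probe sets matched the RefSeq gene table by gene ID, with 0 symbols updated. That table gave names and gene order, and the RefSeq promoter table (GRCh38.p14) gave coordinates and sequences. For each of 19775 genes the probe set with the highest mean over 15 arrays was used.

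Group means were fitted to all 15 arrays with limma 3.58.1 (lmFit, eBayes) in R 4.3.3, with 10 residual and 5.397 prior degrees of freedom, and 6 contrasts were drawn. The members, the neighbourhood of 20 genes on each side, the gene lists (ABCC subfamily, glutathione and leukotriene C4, dynein and centrosome partners, markers) and the tests were chosen with earlier results of these data known. The genes named were all members with their probe sets, called or adjacent genes of the neighbourhood, the 6 genes most like ABCC1 with the nearest of the neighbourhood, and up to 4 called genes of each list in a contrast. Of the lists, 10 of 11, 21 of 22 and 14 of 15 genes were measured, and the rest were not analysed here.

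The labels do not say whether same-numbered cultures were paired, and the main fit did not pair them. Of 30 pairs of same-numbered arrays 8 had deviations from group means that correlated above 0.1, with a range of -0.4617 to 0.4584. The highest were within CAL51, at 0.4584 and 0.3971 between 24 h and 48 h (replicates 3 and 2). Replicate 3 of untreated CAL51 and of CAL51 at 48 h gave -0.2923. Pairing within a line was therefore not settled. Alternatives were repeated quantile normalization, median centring, the mean of a gene's probe sets, every probe set, a filter on the dimmest 25% of genes, array weights, a fit to the compared arrays, the replicate number as a block, an intensity trend and leaving out each array.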

Additional observations from a re-analysis of the deposited data

Results flagged for a closer look

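Probe sets annotated to several symbols were kept out of the comparisons above, and 5 of those in the stretch around ABCC1 differed between the lines when all 54613 non-control probe sets were fitted with limma. In that fit 19.1% of probe sets were called between untreated lines and 21.8% between treated lines. The probe sets that match NOMO1, NOMO2 and NOMO3 alike were both called. The brighter one (mean level 12.03) was higher by 0.67 in untreated CALDOX than in untreated CAL51 (adjusted p = 2.75e-07) and by 0.87 in treated CALDOX than in treated CAL51 (adjusted p = 1.04e-08). The other (mean level 10.7) was higher by 0.64 (adjusted p = 1.79e-06) and 0.97 (adjusted p = 1.07e-08) in the same comparisons. The single-symbol NOMO3 probe set gave 0.19 and 0.17 there. Which of the 3 copies the shared probe sets read was not tested.

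A probe set shared by NPIPA genes and PKD1P1 (mean level 11.1) was higher by 0.23 in untreated CALDOX (adjusted p = 0.0106) and by 0.31 in treated CALDOX (adjusted p = 0.000946). A second one of the same family (mean level 10.7) was higher by 0.26 in treated CALDOX (adjusted p = 0.0161). A probe set shared by PLA2G10 and LOC100652777 (mean level 6.51) was higher by 0.30 in treated CALDOX (adjusted p = 0.0396).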

How the results depend on the processing

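The 4 members called between treated lines were 4 under every alternative that fitted the members, save array weights, which also called MYH11 (0.12, adjusted p = 0.0315) and NOMO3 (adjusted p = 0.0442), and no member reversed its direction where it was called. The responses to drug were less firm. For CAL51 at 24 h, 2 members were called, against 1 after median centring, with the mean of probe sets, with array weights and with the replicate block, 0 in a fit to the compared arrays, and 0 to 2 when single arrays were left out. For CALDOX at 24 h, 1 member was called, against 2 after repeated quantile normalization, in a fit to the compared arrays and with an intensity trend, 3 with the dim filter and with array weights, 0 after median centring, with every probe set and with the replicate block, and 0 to 2 when single arrays were left out. With the mean of probe sets the count there was also 1, but the member called was ABCC1 in place of NDE1. Over all genes, CAL51 at 24 h gave 1999 calls, against 3200 with array weights and 870 in a fit to the compared arrays. CALDOX at 24 h gave 2041, against 4961 with array weights and 1341 to 2338 without single arrays. The difference of responses gave 283, against 427 after repeated quantile normalization, 1231 with array weights, 464 with an intensity trend and 161 to 353 without single arrays. The replicate block also moved the NDE1 call in CALDOX at 24 h to an adjusted p of 0.0665 and the NOMO3 call in CAL51 at 24 h to 0.0522. Across the members' single values, 965 kept direction and side of the threshold, 26 lost the call, 13 gained it and 4 with no test moved by more than the spread. The cause was not tested.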
